A study of Mus musculus with 84 samples.

Results

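Collagens are the triple-helical proteins that give extracellular matrix its strength, and each molecule is wound from alpha chains that in many types are encoded by separate genes. Fibrillar types (I, II, III, V, XI and XXVII) form fibres, type IV forms the sheet-like network of basement membranes, type VI forms beaded filaments, and the fibril-associated types (FACIT: IX, XII, XIV, XVI, XIX, XX and XXII) decorate the surface of fibres. In healthy brain and spinal cord such proteins lie mainly in the vessel wall and the meninges, and basement membrane collagen lies where astrocyte endfeet meet vessels. The genes described here were all those whose mouse symbol is Col, a number, a and a number and that held at least 10 counts in total in either of the 2 deposited count tables. They were 42 of the 44 genes with such a symbol (*Col24a1* and *Col28a1* held fewer) among the 48568 genes listed in the 2 tables. By the type of their chains they were 10 fibrillar, 6 basement membrane network, 6 beaded filament, 9 FACIT, 3 short-chain network, 4 transmembrane, 2 multiplexin and 1 anchoring fibril gene and 1 other (*Col26a1*).

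The series held 84 mouse libraries, read from the 3′ ends of transcripts. In 15 libraries astrocytes had been sorted by FACS from unimmunized FVB/N mice of an age not given in the sources used here, 3 libraries each from forebrain GLASTneg, forebrain GLASTpos, hindbrain GLASTneg, hindbrain GLASTpos and spinal cord GLASTneg cells. GLAST is the glutamate transporter encoded by *Slc1a3*. Another 3 libraries came from C57BL/6J neonatal cerebral astrocytes (taken by postnatal day 2 and grown for 14 days). The remaining 66 came from C57BL/6J mice, female and immunized at 10 weeks of age with a myelin oligodendrocyte glycoprotein peptide in complete Freund's adjuvant plus pertussis toxin, which causes experimental autoimmune encephalomyelitis (EAE), and from unimmunized controls. They were taken from hindbrain GLASTneg, hindbrain GLASTpos and spinal cord GLASTneg cells of controls (C; 5, 5 and 5 libraries), at score 1 (E1, limp tail; 6, 6 and 5), at score 4 (E4, hind-leg paralysis; 6, 6 and 6) and in the chronic phase (Ech; 6, 4 and 6). All sorted cells were CD11B-negative, CD45-negative and ACSA-2-positive, a gate that leaves any cell carrying ACSA-2 (the *Atp1b2* product), and a library held cells of at most 2 mice. Library totals were 416768 to 1269316 counts for the FVB/N cells, 2183464 to 8188074 for the cultured cells and 1313682 to 4895220 for the EAE set. With 3 counts taken as the floor of detection, that floor lay at 2.44 to 7.05, 0.343 to 1.19 and 0.634 to 2.44 CPM (counts scaled to the size of the library, with TMM factors) respectively.

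Some labels went against the data. For 12 of the 15 FVB/N libraries the group in the GEO label was not the one in the supplementary table of the study whose values match that library, and the sum of 5 posterior *Hox* genes (*Hoxa7*, *Hoxa9*, *Hoxc6*, *Hoxc8*, *Hoxc9*, chosen after their values were seen) was 414, 446 and 504 CPM in the libraries labelled hindbrain GLASTneg and 0 in all 3 labelled spinal cord GLASTneg. In the EAE controls the same sum was 288 to 483 CPM in spinal cord and at most 2.55 CPM in hindbrain. *Slc1a3* was at 9791 to 11212 CPM in the libraries labelled spinal cord GLASTneg and at 585 to 996 CPM in those labelled hindbrain GLASTneg. The FVB/N libraries are therefore called "labelled" throughout, with the name in that table beside it. Score 1 spinal cord replicate 1 carries hindbrain in its region field, and it was kept in spinal cord by its title; the *Hox* sum was 58.9 to 250 CPM over the 5 libraries of that group. Summed astrocyte markers (8 genes) stood at 21067 to 30041 CPM in the FVB/N libraries and 4438 to 5542 CPM in the cultured ones. In the spinal cord libraries the same sum was 11174 to 15986 CPM in controls, 2943 to 19936 at score 1, 316 to 1614 at score 4 and 493 to 1290 in the chronic phase, so the astrocyte label of the last 2 spinal cord groups is not borne out by its markers. The first 2 groups were not free of other cells' transcripts either. Oligodendrocyte markers (10 genes) summed to 14356 to 41871 CPM in spinal cord controls and 26911 to 62065 at score 1. In hindbrain GLASTneg controls that sum was 1470 to 5101 CPM. In a sorted bulk sample fewer cells of a type and less RNA per cell cannot be told apart.

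The starts of 4 collagen genes are shown because these genes carry the main contrasts below: *Col4a1*, which is read away from its partner chain *Col4a2*, *Col1a2*, *Col9a2* and *Col11a1*. Each sequence is a RefSeq window of GRCm38.p6 from 250 bases before to 50 bases after the annotated start, written on the strand of the gene. Capitals mark matches, on either strand, to the CCAAT box (CCAAT), the GC box (GGGCGG), the TATA box (TATAAA) and the core of SOX sites (AACAAT).
Col4a1, chr8:11312777-11313076, minus strand: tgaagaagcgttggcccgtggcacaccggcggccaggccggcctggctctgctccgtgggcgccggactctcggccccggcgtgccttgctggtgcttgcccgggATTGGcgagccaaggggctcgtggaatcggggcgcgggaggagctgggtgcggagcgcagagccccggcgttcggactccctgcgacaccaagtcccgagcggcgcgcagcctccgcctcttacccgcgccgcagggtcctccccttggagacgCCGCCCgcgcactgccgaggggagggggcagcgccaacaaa
Col1a2, chr6:4505368-4505667, plus strand: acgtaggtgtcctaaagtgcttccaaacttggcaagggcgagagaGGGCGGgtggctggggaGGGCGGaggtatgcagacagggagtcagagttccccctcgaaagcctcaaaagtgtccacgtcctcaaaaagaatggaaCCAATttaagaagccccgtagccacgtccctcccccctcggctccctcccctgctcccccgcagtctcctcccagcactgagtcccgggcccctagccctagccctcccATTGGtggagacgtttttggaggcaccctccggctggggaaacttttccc
Col9a2, chr4:121039316-121039615, plus strand: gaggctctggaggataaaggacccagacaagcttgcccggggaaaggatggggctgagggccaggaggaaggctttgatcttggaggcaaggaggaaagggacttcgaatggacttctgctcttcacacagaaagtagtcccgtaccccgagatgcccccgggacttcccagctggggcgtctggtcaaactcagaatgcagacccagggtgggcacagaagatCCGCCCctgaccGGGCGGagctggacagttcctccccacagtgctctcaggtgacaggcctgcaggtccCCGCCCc
Col11a1, chr3:114030290-114030589, plus strand: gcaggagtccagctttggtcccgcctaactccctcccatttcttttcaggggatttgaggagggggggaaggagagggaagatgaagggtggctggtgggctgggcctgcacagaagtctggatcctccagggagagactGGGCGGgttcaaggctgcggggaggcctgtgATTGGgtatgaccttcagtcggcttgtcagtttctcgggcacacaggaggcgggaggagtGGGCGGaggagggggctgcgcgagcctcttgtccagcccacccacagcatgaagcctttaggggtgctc
The *Col4a1* window shares 78 bases with that of *Col4a2*, so both chains of the main type IV molecule start from one stretch of DNA. Windows were found for 33 of the 42 genes. Of their 36 windows 13 held a CCAAT box, 23 a GC box, 5 a TATA box and 1 a SOX core, where 37.41%, 35.66%, 13.62% and 10.72% of all 32851 windows of this length did. A match of letters is a description and not a bound site, and the motifs do not overlap each other.

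Summed over all 42 genes, collagen transcripts were 949 to 1338 CPM in cultured astrocytes, 179 to 988 CPM in the FVB/N libraries and 117 to 700 CPM in the EAE set. These sums, unlike the other values, were scaled to the library total without TMM factors. A group mean of 5 CPM or more was reached somewhere by 30 genes, in sorted cells by 26 and in cultured cells by 21. The 12 genes below 5 CPM in every group were *Col3a1*, *Col4a3*, *Col6a4*, *Col6a5*, *Col6a6*, *Col9a1*, *Col10a1*, *Col14a1*, *Col15a1*, *Col17a1*, *Col19a1* and *Col25a1*. *Col3a1*, the fibrillar collagen that accompanies type I in many soft tissues, was at 0 in every FVB/N library but 1 (3.26 CPM).

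**Figure D1:**
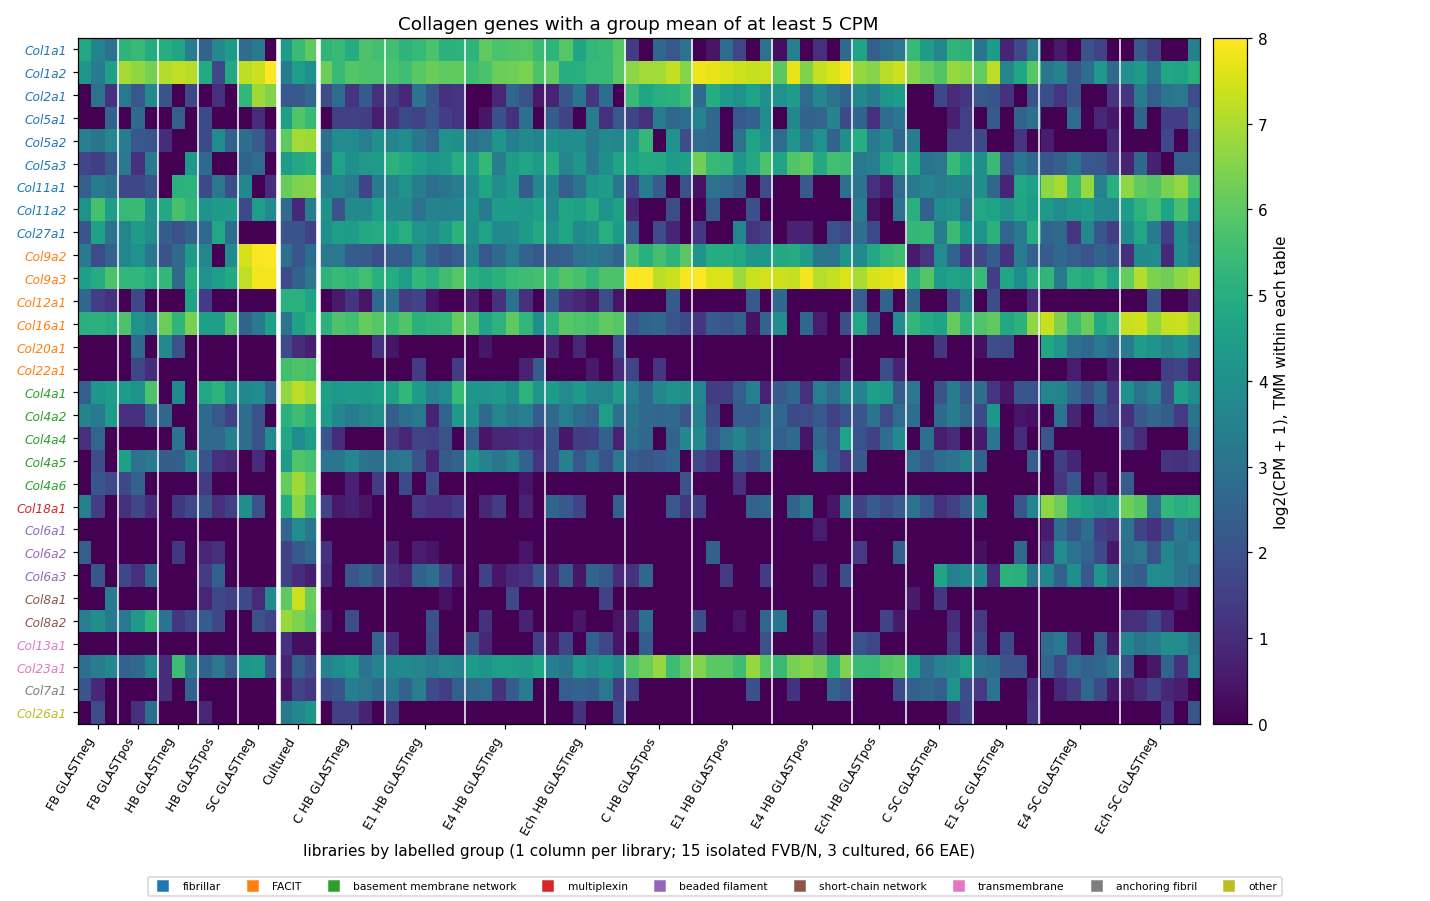
Level of the 30 collagen genes with a group mean of at least 5 CPM (rows, coloured by chain type) in each of the 84 libraries (columns, by labelled group; FB forebrain, HB hindbrain, SC spinal cord), as log2 of CPM + 1 from 0 (dark) to 8 (yellow), scaled within each table. The cultured columns are bright in *Col4a6*, *Col8a1* and *Col22a1*, the GLASTpos hindbrain columns of the EAE set in *Col9a2*, *Col9a3* and *Col23a1*, and the score 4 and chronic spinal cord columns are darker in *Col1a1* and *Col1a2* and brighter in *Col11a1* and *Col18a1* than their controls.

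Cultured astrocytes were compared with the mean of the 5 sorted FVB/N groups. Most collagen genes were higher in culture, among them all 6 chains of type IV, both tested chains of the short-chain type VIII, and the type V chains. Of 36 genes tested, 24 were higher and 4 lower (adjusted p under 0.05 and a log2 fold change over 1, edgeR), beside 31.7% of all 17126 genes called in this comparison. The median log2 fold change of the 36 was 3.49, or 2.35 with genes at the floor on one side set at their bound, and that of all genes was 0.43. The sets of values did not overlap for 17 of the 36. No share over all genes is given beside this count, which describes the collagen genes only. DESeq2's size factors lowered the median of all genes by 0.115, to 0.317, and no call of a collagen gene was lost under them. Strain, age, culture, RNA extraction and region all differ between the groups and cannot be told apart. The cultured cells were cerebral, and the mean of the sorted groups includes hindbrain and spinal cord.

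All 6 basement membrane chains rose in culture. *Col4a1* (GRCm38 chr8:11198423-11312826, overlapping *Col4a2* on the other strand) was at 103, 147 and 118 CPM in culture and at 0 to 53.9 CPM in the sorted libraries, a log2 fold change of 3.13 ± 0.38 (SE; adjusted p = 8.6e-09). *Col4a2* was at 34.1, 44.4 and 34 CPM against 0 to 20.3 (3.27 ± 0.59; adjusted p = 1.8e-05). The value sets of both genes were apart, and their starts are the shared window shown above. *Col4a6*, a chain of the smooth muscle and epithelial form of type IV, was at 68.2, 115 and 74.8 CPM in culture and at no more than 4.68 CPM in any sorted library (7.57 ± 0.63; adjusted p = 1.1e-12). The other type IV chains, *Col4a3*, *Col4a4* and *Col4a5*, were higher by 4.39, 3.45 and 4.15 on the log2 scale, *Col4a3* from a mean of only 1.53 CPM. Of the 11 laminins, nidogens and heparan sulphate proteoglycans tested as partners of this network, 7 were higher and 1 lower, beside 31.7% of all genes called. *Nid2* (nidogen), *Hspg2* (perlecan) and *Lama5* (laminin) rose by 4.44, 4.21 and 3.42 log2 units, and *Lama2* fell by 1.88.

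Fibrillar and associated chains moved in both directions. *Col22a1*, a FACIT collagen of tissue junctions, had 46.4, 53.2 and 49.4 CPM in culture and no more than 3 counts in any sorted library, which makes it at least 14.1-fold higher (adjusted p = 1.3e-10). *Col8a1*, a short-chain collagen of vessel walls, was at 63, 162 and 72.6 CPM against at most 12.9 (log2 fold change 7.17 ± 0.65; adjusted p = 8.2e-12). *Col5a1*, the chain that sets fibre diameter with type I, was at 22.2, 55.3 and 40.8 CPM against at most 5.85 (5.10 ± 0.75; adjusted p = 4.2e-07). *Col26a1* was at 8.33, 12.1 and 17.2 CPM against at most 6.47 (5.15 ± 1.04; adjusted p = 1.3e-04). *Col6a1*, which has to pair with *Col6a2* and *Col6a3* in a type VI molecule, was at 5.15, 13.5 and 8.40 CPM and at 0 in all 15 sorted libraries, at least 2.56-fold higher (adjusted p = 2.8e-05). *Col3a1* was low in both, at a mean of 4.53 CPM in culture and at most 1.09 in a sorted group (adjusted p = 0.0016). The calls of *Col3a1*, *Col4a3*, *Col6a1*, *Col6a2* and 4 other low genes were not made by DESeq2, which called 21 collagen genes.

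Partner chains of the same molecule parted. The usual type I collagen joins chains of *Col1a1* and *Col1a2*, and *Col1a1* was higher in culture (20.6, 42.5 and 65 CPM; log2 fold change 1.51 ± 0.46; adjusted p = 0.0086) while *Col1a2* was lower (8.72, 21.0 and 15.2 CPM against group means of 16.2 to 197; −2.01 ± 0.37; adjusted p = 2.7e-05). The values of both genes overlapped between the groups, and the call of *Col1a1* was lost without cultured replicate 3. Cultured *Col1a2* lay within the values of the libraries labelled forebrain GLASTneg (8.55 to 22.7 CPM) and hindbrain GLASTpos (2.31 to 28.5 CPM). The supplementary table names both of these groups forebrain. Its fall was thus against the remaining sorted groups, at 81.9 to 279 CPM. In type XI the same split was seen, with *Col11a1* at 70.2 to 91 CPM against at most 35.2 (3.79 ± 0.50) and *Col11a2* at 0.914 to 9.20 CPM against 2.48 to 50.4 (−2.20 ± 0.61), a call lost without cultured replicate 2. The other genes that fell were the type IX chains *Col9a2* and *Col9a3* (−1.54 and −3.03), cartilage collagens that coat type II fibres. The call of *Col9a2* was lost without cultured replicate 2. Its cultured values (3.43 to 6.74 CPM) lay within those of the libraries labelled forebrain GLASTneg (2.56 to 8.72 CPM). These partner contrasts were singled out after the values were seen.

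The genes that fold, trim, bind and break down collagen were followed as lists. Of 19 enzymes and chaperones of modification and secretion 2 were higher and 1 lower, which is 15.8% called beside the 31.7% of all genes. Of 10 trimming and crosslinking genes 4 were higher and 0 lower (40%), and of 8 receptors 4 were higher (50%). *Loxl2* and *Lox*, which crosslink collagen, were at 30.0 and 13.7 CPM in culture against 0.353 and 0.588 CPM in sorted cells (7.72 and 5.18 log2 units). The receptor *Ddr2*, which binds fibrillar collagen, rose by 5.70 and the integrin chain *Itga1* by 5.20. Among 8 genes of breakdown and its inhibitors (37.5% called), *Timp2* and *Mmp2* rose and *Timp4* fell by 3.10. Markers of other cells moved with culture. The myeloid list (12 genes) summed to 297 to 2295 CPM against 16.0 to 187 in sorted cells, and the mural list (8 genes) to 761 to 2892 against 14.6 to 177, nearly all of it *Acta2* (1932 CPM) with *Higd1b* at 0. The fibroblast list (8 genes) was at 88 to 135 CPM against 4.62 to 141, with *Ogn* at 69.7 CPM in culture. The ependymal list (5 genes) was at 721 to 1248 CPM against 29.7 to 909, with *Foxj1* at a mean of 529 CPM in culture. Their part in the result was not tested. Without each cultured library in turn, 23 to 26 collagen genes were called.

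**Figure D2:**
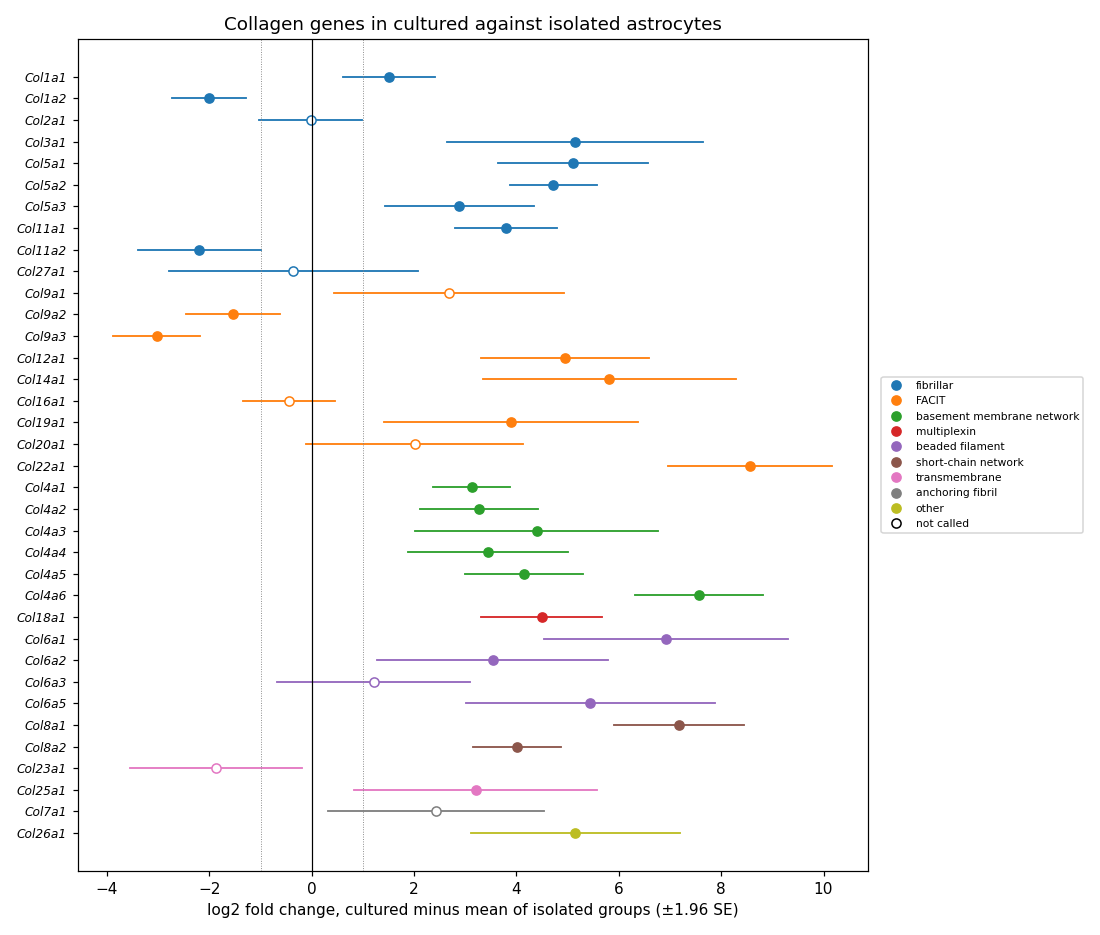
Log2 fold change of the tested collagen genes in cultured against sorted astrocytes (x axis), with 95% intervals, ordered and coloured by chain type (y axis). Filled points are the called genes, 24 of them to the right of zero and 4 (*Col11a2*, *Col1a2*, *Col9a2* and *Col9a3*) to the left, and fitted values of genes at the floor in the sorted libraries depend on the prior count.

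The 5 sorted FVB/N groups were each compared with the mean of the other 4. Of 26 collagen genes tested, the libraries labelled spinal cord GLASTneg (named hindbrain GLASTpos in the supplementary table) had 4 higher and 2 lower, where 7.54% of all 14957 genes were called. These 6 were *Col2a1*, *Col9a2*, *Col9a3*, *Col1a2*, *Col27a1* and *Col16a1*. *Col9a1*, the third type IX chain, was not called. *Col2a1*, the main chain of cartilage fibres, was at 38.4, 114 and 89.2 CPM there and at most 12.9 in the other 12 libraries (log2 fold change 5.18 ± 0.59; adjusted p = 1.4e-11). *Col9a2* was at 177, 239 and 279 CPM against at most 18.8 (4.80 ± 0.34; adjusted p = 6.1e-22), and *Col9a3* at 150, 227 and 232 CPM against at most 53.8 (2.80 ± 0.29; adjusted p = 2.1e-13). None of these 3 value sets overlapped. Type II fibres carry type IX on their surface. *Col27a1*, a fibrillar collagen of cartilage, was at 0 in all 3 libraries (adjusted p = 0.0069). *Col1a2* was at 146, 165 and 279 CPM (2.06 ± 0.27), and *Col16a1* at 4.96, 8.86 and 22.6 CPM (−1.60 ± 0.52; adjusted p = 0.037). Both overlapped the other groups, and the call of *Col16a1* was lost with filterByExpr and without any one of 5 of the 15 libraries (its own replicates 1 and 2, forebrain GLASTpos replicate 1, hindbrain GLASTneg replicate 3 and hindbrain GLASTpos replicate 3).

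*Col1a2* separated the remaining groups. It was at 135, 149 and 141 CPM in the libraries labelled hindbrain GLASTneg (named spinal cord GLASTneg), where 3 genes were higher and 0 lower beside 4.41% of all genes called: *Col1a2* (1.5 ± 0.28; adjusted p = 6.2e-05), *Col16a1* (1.39 ± 0.42; adjusted p = 0.032) and *Col20a1*, which rested on 12.5, 2.92 and 0 CPM (adjusted p = 0.043). In the libraries labelled forebrain GLASTneg, whose name is the same in both sources, *Col1a2* was at 17.4, 8.55 and 22.7 CPM (−2.45 ± 0.38; adjusted p = 1.9e-06) and *Col9a2* was lower too (−1.98 ± 0.53; adjusted p = 0.025), 0 higher and 2 lower beside 1.18% of all genes. In those labelled hindbrain GLASTpos (named forebrain GLASTpos) *Col1a2* was at 28.5, 2.31 and 27.7 CPM (−2.0 ± 0.36; adjusted p = 3.4e-05) and *Col2a1* was at most 1.16 CPM (adjusted p = 0.018), with 2.49% of all genes called. No collagen gene was called in those labelled forebrain GLASTpos (named hindbrain GLASTneg), by edgeR or DESeq2, beside 1.94% of all genes called. Of the 26 tested there, 10 had an unadjusted p under 0.05, as had 1706 of all 14957 genes. *Col1a2* stood at 121, 102 and 81.9 CPM there, so its 5 group means ran from 16.2 and 19.5 CPM in the groups that table names forebrain to 102, 142 and 197 CPM in those it names hindbrain GLASTneg, spinal cord GLASTneg and hindbrain GLASTpos. *Col1a1* did not follow it, with group means of 5.02 to 35.8 CPM, the lowest in the group where *Col1a2* was highest. *Col4a1* and *Col4a2* passed no test here, and *Col4a1* was at 0 to 53.9 CPM over the 15 libraries. Single libraries weighed on the smaller counts. In the libraries labelled forebrain GLASTneg 1 gene was called without its replicates 2 or 3, forebrain GLASTpos replicate 2 or hindbrain GLASTneg replicate 3, and 1 gene in those labelled forebrain GLASTpos without hindbrain GLASTneg replicate 2 (*Col4a1*) or spinal cord GLASTneg replicate 3 (*Col8a2*). In those labelled hindbrain GLASTneg 1 was called without forebrain GLASTpos replicate 3, its own replicate 1 or hindbrain GLASTpos replicates 1 or 2, as by DESeq2. In those labelled hindbrain GLASTpos 1 was called without forebrain GLASTneg replicate 2, hindbrain GLASTneg replicate 1 or its own replicates 1 or 3. With the names of the supplementary table in place of the labels the 5 counts stay with their libraries and change their group name, which turns the direction of 7 named values. Oligodendrocyte markers (10 genes) summed to 10860 to 15635 CPM in the libraries labelled hindbrain GLASTneg and to at most 6625 CPM in the other groups; their part in the values of *Col1a2*, *Col16a1* and *Col20a1* was not tested.

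**Figure D3:**
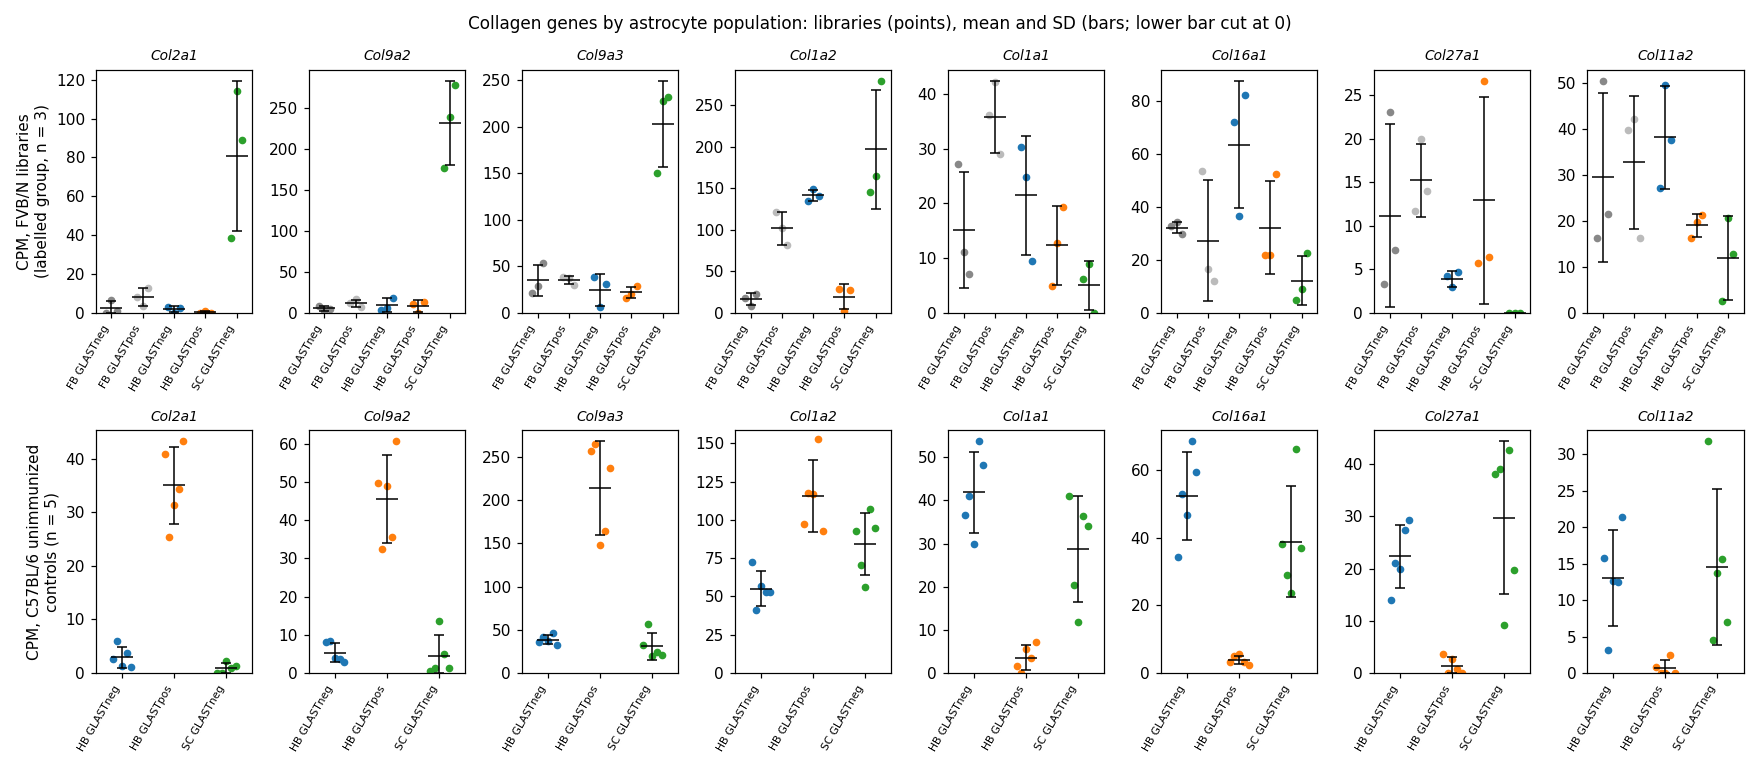
CPM of single libraries (points) with the group mean and SD (bars, cut at 0) for 8 collagen genes, in the 5 labelled FVB/N groups (upper row, n = 3 each) and in the unimmunized control populations of the EAE set (lower row, n = 5 each). *Col2a1*, *Col9a2* and *Col9a3* are highest in the libraries labelled spinal cord GLASTneg and in the C57BL/6J hindbrain GLASTpos controls, where *Col9a2* lies at 32.6 to 60.6 CPM.

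The EAE controls allow GLASTpos and GLASTneg hindbrain cells to be compared in C57BL/6J mice. Here 10 of 41 genes tested were called, 5 higher and 5 lower, beside 10.5% of all 23324 genes. Those higher in GLASTpos cells were *Col2a1*, *Col9a2*, *Col9a3*, the transmembrane *Col23a1* and *Col1a2* (*Col9a1* was not called), and those lower were *Col1a1*, *Col11a2*, *Col27a1*, *Col16a1* and *Col14a1*. *Col9a2* was at 49.9, 32.6, 48.9, 35.5 and 60.6 CPM in GLASTpos libraries and at 2.81 to 8.28 in GLASTneg ones (log2 fold change 3.06 ± 0.57; adjusted p = 4.3e-05). *Col2a1* was at 25.4 to 43.2 CPM against 1.12 to 5.98 (3.52 ± 0.82; adjusted p = 0.0013). *Col9a3* was at 147 to 265 CPM against 32.6 to 46.7 (2.46 ± 0.33; adjusted p = 3.8e-08). None of these values overlapped. These libraries share no control with the FVB/N set, but the sheet number in the sample names (S and a number, whose meaning is not given in the sources used here) was 56 or below for every hindbrain GLASTneg library and 57 or above for every GLASTpos one, so population and whatever that number stands for cannot be told apart.

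Chain partners split again in this comparison. *Col1a1* was at 1.63, 0, 5.55, 3.55 and 7.12 CPM in GLASTpos cells and at 36.5, 40.9, 30.0, 53.7 and 48.3 in GLASTneg cells (−3.50 ± 0.81; adjusted p = 0.0012), and *Col1a2* was at 93 to 153 CPM against 40.9 to 72.2 (1.07 ± 0.35; adjusted p = 0.029). In neither gene did the libraries overlap. The call of *Col1a2* was lost with the sheet number in the design and without control GLASTneg replicate 2 or 5 or GLASTpos replicate 4. *Col14a1* was the least settled, lost without GLASTneg replicate 2 or any one of the 5 GLASTpos libraries and with the title number, a number in the titles that libraries of a stage share, as a block factor. *Col11a2* was at 0 in 3 of 5 GLASTpos libraries and at 3.22 to 21.4 CPM in GLASTneg ones (−4.12 ± 0.80; adjusted p = 1.0e-04), while *Col11a1* was at means of 3.68 and 8.47 CPM and was not called. *Col27a1* (0 to 3.68 against 14 to 29.2 CPM) and *Col16a1* (2.45 to 5.55 against 34.4 to 68.5 CPM) were lower by 4.02 and 3.75 on the log2 scale. *Col4a1* was at 5.68 to 15.7 CPM against 18.4 to 22.5, which did not pass the test. *Col6a1* was at 0 in both, and *Col3a1* at 0 in all but GLASTneg replicate 2 (1.84 CPM). Oligodendrocyte markers summed to 1170 to 1336 CPM in GLASTpos and 1470 to 5101 in GLASTneg controls, the fibroblast list to 1.47 to 21.2 and 18 to 32.3 CPM with *Lum* at 0 in both; their part was not tested.

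Control spinal cord GLASTneg cells were set against control hindbrain GLASTneg cells. Only *Col4a1* of 41 genes was called (0 higher, 1 lower, beside 4.2% of all genes): it was at 7.93, 0, 3.15, 9.42 and 3.74 CPM in spinal cord and at 18.4 to 22.5 in hindbrain (−2.07 ± 0.62; adjusted p = 0.029). The values did not overlap, but the call was lost without any one of 5 of the 10 libraries (hindbrain GLASTneg replicates 1 and 5, spinal cord replicates 2, 3 and 5), with the sheet number in the design and with the title number as a block factor. *Col1a1* (11.8 to 41.1 CPM) and *Col1a2* (55.9 to 107 CPM) were present in control spinal cord at levels that passed no test against hindbrain GLASTneg cells. Oligodendrocyte markers summed to 14356 to 41871 CPM in control spinal cord against 1470 to 5101 in hindbrain GLASTneg controls, precursor markers to 197 to 602 against 16.6 to 20.8 CPM and the neuron list to 160 to 286 against 71.4 to 199 CPM. Astrocyte markers summed to 11174 to 15986 against 19032 to 24535 CPM. The part of these in the value of *Col4a1* was not tested.

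In spinal cord, type I collagen transcripts fell with disease and a set of other collagens rose. At score 4, 15 of 41 genes were called, 5 higher and 10 lower, beside 17.9% of all genes. In the chronic phase 15 were called, 9 higher and 6 lower, beside 14.7%. At score 1, 1 gene was called, beside 6.17%. The median log2 fold change of the 41 genes was −0.10 at score 4 and 0.90 in the chronic phase, 0 for both with genes at the floor set at their bound, and 0 over all genes. The values of 8 and 13 of the 41 genes did not overlap those of controls. These counts too have no share over all genes beside them and are a description only. Controls are shared by the 3 stages, and each gene's values are given side by side.

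*Col1a1* (chr11:94936224-94953042) was at 41.1, 20.3, 11.8, 36.4 and 34.2 CPM in controls. At score 1 it was at 7.72, 19.6, 0.790, 2.40 and 9.28 CPM, at score 4 at 0 to 3.11, with 3 of 6 libraries at 0, and in the chronic phase at 0 to 10.1, again with 3 of 6 at 0. The score 4 and chronic values lay below every control (−4.77 ± 0.86; adjusted p = 1.0e-05, and −3.42 ± 0.77; adjusted p = 4.6e-04). *Col1a2* (chr6:4504814-4541544) was at 92.7, 70.9, 55.9, 107 and 94.5 CPM in controls, at 11.5 to 147 with a median of 58.8 at score 1, at 3.37 to 18.2 with a median of 7.06 at score 4, and at 7.82 to 32.9 with a median of 21.8 in the chronic phase. Score 4 and chronic libraries again lay below all controls (−3.24 ± 0.36; adjusted p = 2.0e-11, and −2.02 ± 0.34; adjusted p = 2.7e-06). Between score 4 and the chronic phase *Col1a2* was 1.22 ± 0.34 log2 units higher (adjusted p = 0.024), one of 2 genes called there beside 3.16% of all genes. Both chains of type I were thus lower here. They had moved in opposite directions between the hindbrain populations and in culture set against the mean of the sorted groups. The calls of score 4 against the chronic phase are less settled: 1 gene was called without any one of score 4 replicates 3, 4 or 6 or chronic replicate 5 and with the sheet number in the design, and 0 with libraries of sheet number 57 or above only, and limma voom called *Col9a3* and *Col16a1* but not *Col1a2*.

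Other collagens fell with them. *Col5a3*, a type V chain, had control values of 7.54 to 41.8 CPM and was at 1.78 to 7.27 at score 4 and 0 to 5.5 in the chronic phase (−2.43 ± 0.52 and −3.07 ± 0.53). *Col4a5* was at 3.61 to 10.3 CPM in controls and at most 1.8 and 1.64 later, apart from controls at both stages (−3.85 ± 1.19; adjusted p = 0.012, and −3.23 ± 1.13; adjusted p = 0.035). Its chronic call was lost with the sheet number in the design and without any one of control replicates 4 and 5 and chronic replicates 1, 2 and 3, and its score 4 call with that number or with libraries of 57 or above only. *Col23a1*, a transmembrane collagen, was the gene called at score 1, at 0 to 7.47 CPM against 6.23 to 21.1 (−1.81 ± 0.48; adjusted p = 0.0087), and it was called at score 4 and in the chronic phase too (−1.42 and −2.15), at score 4 not without control replicate 5. *Col27a1* was at 9.17 to 42.7 CPM in controls and 1.30 to 12.1 at score 4 (−2.61 ± 0.72) and was not called in the chronic phase. *Col5a2*, *Col12a1*, *Col19a1* and *Col25a1* were called lower at score 4 from control means of 1.49 to 3.18 CPM with no library of score 4 above the floor, and *Col19a1* rested on 1 control library of 7.44 CPM. None of these 4 was called by limma voom, and the call of *Col5a2* was lost without control replicate 1 or score 4 replicates 3 or 5. *Col19a1* was called lower in the chronic phase too, from the same control library and with 0 counts in every chronic library. That call was kept in 2 of 8 alternatives and in 5 of 11 fits that leave out 1 library.

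The genes that rose came from several chain types. *Col11a1* (chr3:114030540-114220718) was at 8.43, 11.2, 9.17, 11.3 and 10.3 CPM in controls, at 0.790 to 26 at score 1, at 98.7, 121, 41, 108, 10.7 and 32 at score 4 and at 50.7 to 103 in the chronic phase (2.75 ± 0.70; adjusted p = 0.0020, and 2.90 ± 0.71; adjusted p = 0.0014). All chronic libraries and all score 4 libraries but replicate 5 lay above every control. *Col18a1*, the multiplexin whose end fragment is endostatin, was at 1.15 to 6.94 CPM in controls, at 15.9 to 98.1 at score 4 and at 6.98 to 74.1 in the chronic phase, in both stages above every control (3.61 ± 0.98; adjusted p = 0.0038, and 3.59 ± 0.98; adjusted p = 0.0048). *Col20a1*, a FACIT collagen, was at 0, 0, 1.43, 0 and 0 CPM in controls and at 5.45 to 25.9 and 8.70 to 20.2 later (5.04 ± 1.29; adjusted p = 0.0025, and 5.24 ± 1.30; adjusted p = 0.0022). *Col11a2*, the partner of *Col11a1*, was at 4.59 to 31.7 CPM in controls and 12 to 20.2 at score 4, and was not called.

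Type VI chains rose in part. *Col6a1* was at 0 in all 5 control and all 5 score 1 libraries, at 0.564 to 6.29 CPM at score 4 and at 1.27 to 8.99 in the chronic phase, at least 2.88-fold and 4.36-fold higher (adjusted p = 0.0047 and 0.0034). DESeq2 made neither call of *Col6a1*. *Col6a2* was at 0 in all controls, at 0.444 to 13.5 CPM at score 4 and at 2.96 to 11.8 in the chronic phase, at least 4.35-fold and 6.88-fold higher (adjusted p = 0.0046 and 0.0029). *Col6a3*, the third chain of the same molecule, was at 0, 0, 24.4, 10.0 and 12.2 CPM in controls and at means of 9.80 and 8.12 later, and was not called. *Col3a1* was at 0 in controls and at means of 0.30 and 1.07 CPM, and *Col4a1* (0 to 9.42 CPM in controls, 1.33 to 11.8 at score 4, 2.73 to 21.9 in the chronic phase) and *Col4a2* passed no test.

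In the chronic phase more genes joined. *Col16a1* was at 38.2, 28.9, 23.8, 66.2 and 37 CPM in controls, 28 to 164 at score 4 and 104 to 171 in the chronic phase (1.90 ± 0.52; adjusted p = 0.0051). *Col9a3* was at 20.1 to 57.1 CPM in controls, 8.98 to 40.5 at score 4 and 68.4 to 133 in the chronic phase, above every control (1.65 ± 0.32; adjusted p = 4.1e-05) and above every score 4 library (1.75 ± 0.30; adjusted p = 5.4e-05). *Col13a1*, a transmembrane collagen, was at most 1.57 CPM in controls and at 7.64 to 15.0 in the chronic phase (4.85 ± 1.72; adjusted p = 0.037). That call was lost without any one of control replicates 1, 2, 3 and 5, with the sheet number in the design and with libraries of 57 or above only. *Col2a1* was at 1.41 to 9.48 CPM against at most 2.29 (2.48 ± 0.83; adjusted p = 0.026), a call lost without any one of control replicates 1, 2 and 4 and chronic replicate 2 and with libraries of 57 or above only. *Col9a2*, the type IX partner, was at means of 4.40 and 8.48 CPM and was not called.

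**Figure D4:**
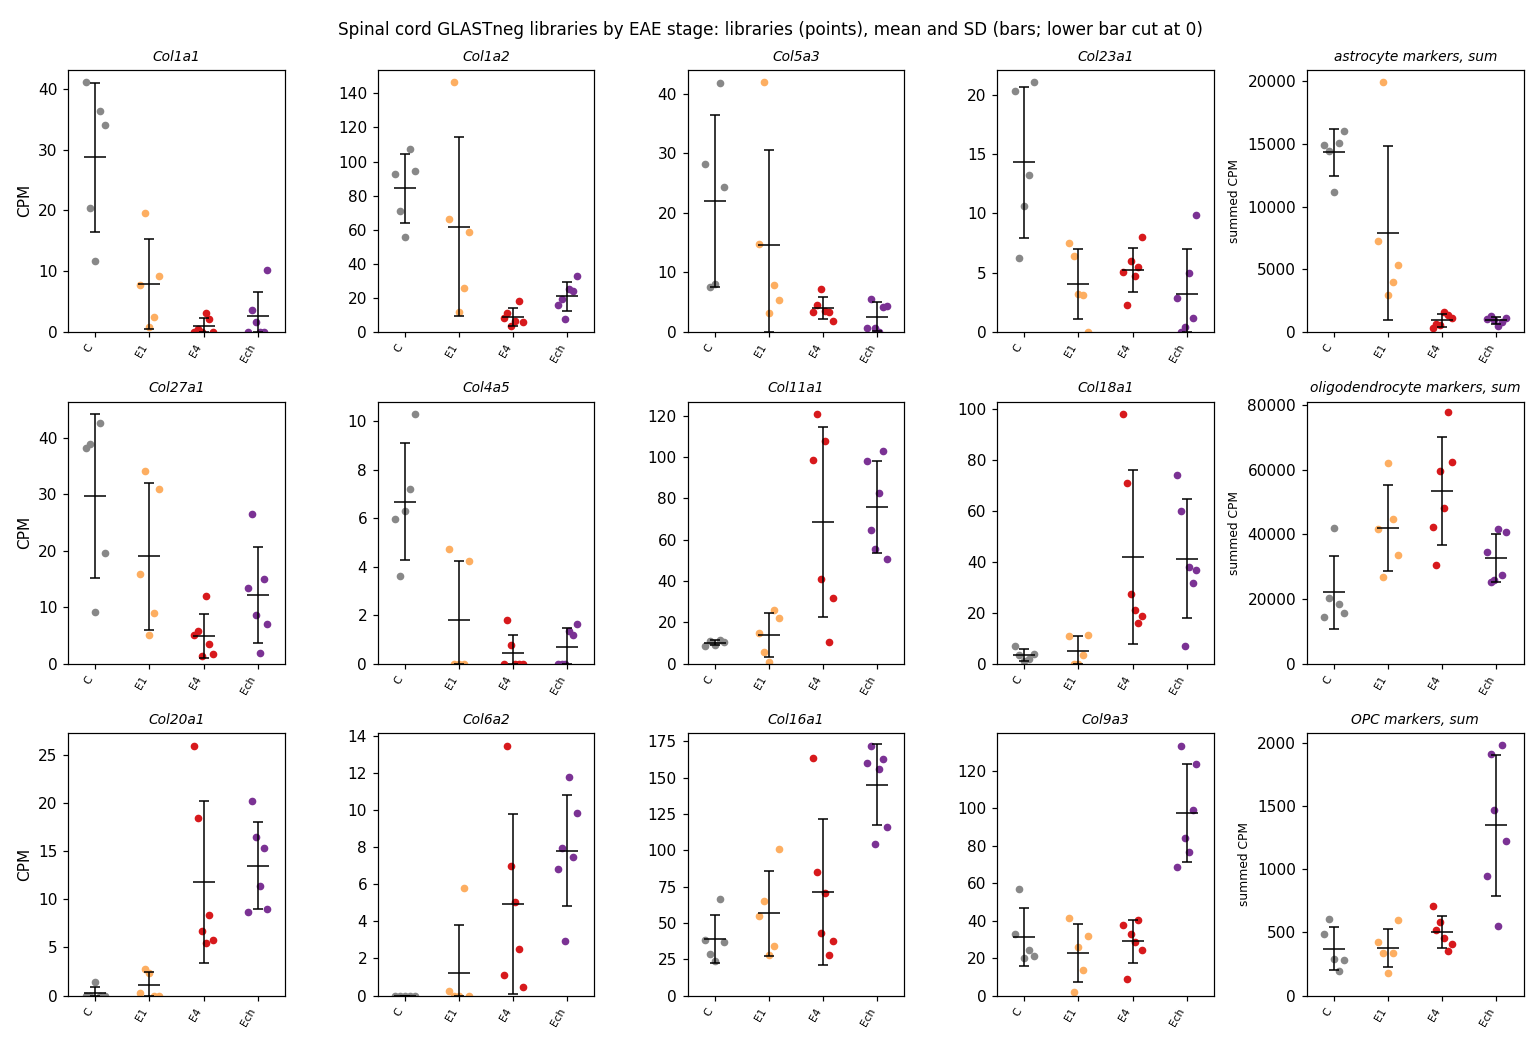
CPM of single spinal cord GLASTneg libraries (points) with the group mean and SD (bars, cut at 0) in controls (C, n = 5), at score 1 (E1, n = 5), score 4 (E4, n = 6) and in the chronic phase (Ech, n = 6), for 12 collagen genes and for the summed astrocyte, oligodendrocyte and oligodendrocyte precursor (OPC) markers. *Col1a1*, *Col1a2* and the astrocyte sum fall at score 4, *Col11a1*, *Col18a1* and *Col20a1* rise, and *Col9a3* rises in the chronic phase.

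The make-up of the spinal cord libraries changed at the same stages. The mean astrocyte marker sum was 14311 CPM in controls, 7867 at score 1, 920 at score 4 (15.6-fold lower) and 925 in the chronic phase (15.5-fold lower). Oligodendrocyte markers summed to 14356 to 41871 CPM in controls, 30353 to 77677 at score 4 and 25390 to 41604 in the chronic phase, and oligodendrocyte precursor markers (4 genes) to 197 to 602, 350 to 706 and 551 to 1983 CPM. The fibroblast list was at 66.6 to 101 CPM in controls, 94.2 to 172 at score 4 and 227 to 411 in the chronic phase, mostly *Pdgfra*, a gene shared with precursors, with *Mgp* at means of 36.7 and 46.3 CPM at the later stages; *Dcn*, *Lum*, *Ogn* and *Slc6a13* were at 0 in every control and score 4 library. Endothelial markers were at most 11.3, 16.2 and 5.92 CPM, and mural markers at 14.1 to 44, 2.25 to 4.67 and 3.36 to 27.7. The neuron list was at 160 to 286 CPM in controls, 470 to 707 at score 4 and 213 to 427 in the chronic phase. Its rise at score 4 was that of *Tubb3* alone, from a mean of 17.4 to 504 CPM. *Snap25*, *Syt1*, *Rbfox3* and *Gad1* fell from means of 91.6, 71.5, 25.9 and 12.8 CPM to 28.5, 15.5, 4.60 and 1.90. The Schwann cell list (5 genes) was at 695 to 2528, 2330 to 6083 and 1152 to 2382 CPM. Nearly all of it was *Mal*, which is also in the oligodendrocyte list. Myeloid markers had medians of 17.5, 87 and 73.2 CPM, with 3156 CPM in score 4 replicate 2, and 14 genes were called at score 4 without that library. At score 1 the library with the highest astrocyte sum (replicate 2, 19936 CPM) was also the highest for *Col1a1*, *Col1a2* and *Col5a3*, and without it 4 genes were called, *Col1a1*, *Col1a2* and *Col4a2* joining *Col23a1*, and limma voom called 3 there, *Col1a1*, *Col4a5* and *Col23a1*. The part of these changes in the collagen results was not tested. The sheet number also moved with stage: all 5 controls were at 57 or above, as were 4 of 5, 1 of 6 and 4 of 6 libraries at score 1, score 4 and the chronic phase. With it in the design 6 genes were called at score 4 (*Col1a2*, *Col6a1*, *Col6a2*, *Col11a1*, *Col18a1* and *Col20a1*) and 12 in the chronic phase. With spinal cord libraries at 57 or above only, 3 were called at score 4 (*Col1a1*, *Col1a2* and *Col6a2*, from 1 score 4 library) and 12 in the chronic phase.

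Several genes that fold and modify collagen were lower in the same libraries. Of all genes 17.9% were called at score 4 and 14.7% in the chronic phase, and the counts of every list here stand beside these shares. Of 20 modification and secretion genes 9 were lower and 0 higher at score 4, and 8 lower and 1 higher in the chronic phase. *Serpinh1*, the collagen-specific chaperone HSP47, had means of 228, 18.2 and 26.8 CPM in controls, at score 4 and in the chronic phase (−3.65 and −3.09), *Fkbp10*, a prolyl isomerase of procollagen, 53.2, 3.19 and 2.22 CPM (−3.99 and −4.44), and *Plod2*, a lysyl hydroxylase, 63, 3.96 and 10.4 CPM (−3.98 and −2.60). Among 12 trimming and crosslinking genes *Loxl1* fell (−5.05 and −5.15), with 1 higher and 2 lower at score 4 and 1 higher and 1 lower in the chronic phase. Of 9 breakdown genes and inhibitors *Mmp14*, *Timp3* and *Timp4* were lower at both stages (*Mmp14* at means of 407, 42.2 and 30.3 CPM), and the neutrophil collagenase *Mmp8* was higher at score 4. Of 12 basement membrane partners 5 were lower and 0 higher at score 4 and 5 lower and 2 higher in the chronic phase. *Lama2* fell at both stages (−2.77 and −3.22) and *Nid1* rose in the chronic phase (3.23). Of 8 receptors 0 were called at score 4 (2 had an unadjusted p under 0.05, as had 8441 of all 23324 genes), and 1 was higher and 2 lower in the chronic phase.

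In hindbrain no collagen gene was called by edgeR at any stage. In GLASTneg cells 0 of 41 were called at score 1, score 4 and the chronic phase by edgeR and by DESeq2, beside 0.643%, 0.729% and 0.193% of all genes called. An unadjusted p under 0.05 was reached by 2, 4 and 2 of the 41, and by 2233, 2059 and 1783 of all 23324 genes. In GLASTpos cells edgeR called 0 at each stage, beside 1.49%, 2.03% and 1.31% of all genes, and DESeq2 called 0, 1 and 1, each time *Col11a2*. Here 6, 8 and 10 of the 41 had an unadjusted p under 0.05 by edgeR, as had 4180, 4395 and 4463 of all 23324 genes. Limma voom called 2 at score 4 in GLASTpos cells, *Col2a1* and *Col9a2*, and 0 at the other stages. *Col11a2* was at 0 in all 6 score 4 GLASTpos libraries and at 9.57, 0.276, 0 and 6.87 CPM in the chronic phase, against 0 in 3 of 5 controls, and edgeR called it in the chronic phase without control replicate 4 or chronic replicate 3. *Col1a1* was at means of 41.9, 40.6, 51.8 and 43.1 CPM in GLASTneg cells of controls, score 1, score 4 and the chronic phase, and *Col1a2* at 55.1, 60.1, 63.2 and 44.9 CPM. *Col2a1* in GLASTpos cells was at means of 35.0, 18.4, 11.1 and 14.9 CPM, with score 4 values of 4.93 to 20.4 CPM below every control (25.4 to 43.2), and did not pass edgeR's test. *Col4a1* in GLASTneg cells was at means of 20.3, 24.4, 20.0 and 16.1 CPM. A p that misses the threshold does not show that these levels stayed the same. Astrocyte markers summed to 14866 to 27750 CPM over all hindbrain groups. In chronic GLASTpos libraries neuron markers summed to 472 to 1533 CPM against 82.5 to 361 in controls. Oligodendrocyte markers were at 2269 to 4398 against 1170 to 1336 CPM, and precursor markers at 42.6 to 105 against 5.72 to 37.9. Mural, endothelial and ependymal sums there overlapped controls. Myeloid medians from controls on were 60.3, 140, 170 and 139 CPM in GLASTneg cells and 42.2, 102, 108 and 101 in GLASTpos cells. The part of these changes was not tested.

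The responses of spinal cord and hindbrain GLASTneg cells were compared by the difference of their changes from controls. At score 4 the difference was called for 6 of 41 genes, 1 higher and 5 lower, beside 7.92% of all genes: the response in spinal cord was lower for *Col1a1* (by 5.07 log2 units; adjusted p = 7.0e-04), *Col1a2* (3.44; adjusted p = 1.3e-07), *Col5a3*, *Col23a1* and *Col8a1*, and higher for *Col6a2*. In the chronic phase it was called for 7, 3 higher and 4 lower, beside 6.8%: *Col1a1*, *Col1a2*, *Col5a3* and *Col23a1* lower, and *Col6a2*, *Col4a6* and *Col9a3* higher. Those of *Col8a1*, *Col4a6* and *Col6a2* rest on levels below 1 CPM in most of the groups involved. The chronic call of *Col9a3* was kept in only 4 and that of *Col4a6* in 8 of the 22 fits that leave out 1 library, the score 4 call of *Col8a1* in 8 of 22. *Col4a6* and *Col8a1* were also lost with DESeq2 and the replicate block, and the score 4 call of *Col6a2* with DESeq2 and, at both stages, without control hindbrain GLASTneg replicate 1. With the title number as a block factor *Col6a2* (both stages), *Col8a1* and *Col4a6* were not called, and limma voom without a block did not call *Col23a1*, *Col5a3* and *Col8a1* at score 4 or *Col4a6* and *Col9a3* in the chronic phase. *Col11a1*, *Col18a1* and *Col20a1*, which rose in spinal cord, were not called in this edgeR comparison, but the score 4 difference of *Col20a1* was called by DESeq2, with filterByExpr, with the replicate block, by limma voom (also in the chronic phase) and without control hindbrain GLASTneg replicate 4, control spinal cord replicate 3, score 1 spinal cord replicates 2 or 5 or score 4 hindbrain GLASTneg replicate 2. Those of *Col18a1* at score 4 and *Col11a1* in the chronic phase were called with the title number as a block factor. For GLASTpos against GLASTneg hindbrain cells at score 4, 0 collagen genes were called by edgeR or DESeq2, beside 0.00857% of all genes. An unadjusted p under 0.05 was reached by 5 of the 41 and by 2091 of all 23324 genes. Hindbrain GLASTneg and spinal cord controls also differ in their sheet numbers, and with that number in the design 3 genes were called at score 4 and 7 in the chronic phase.

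**Figure D5:**
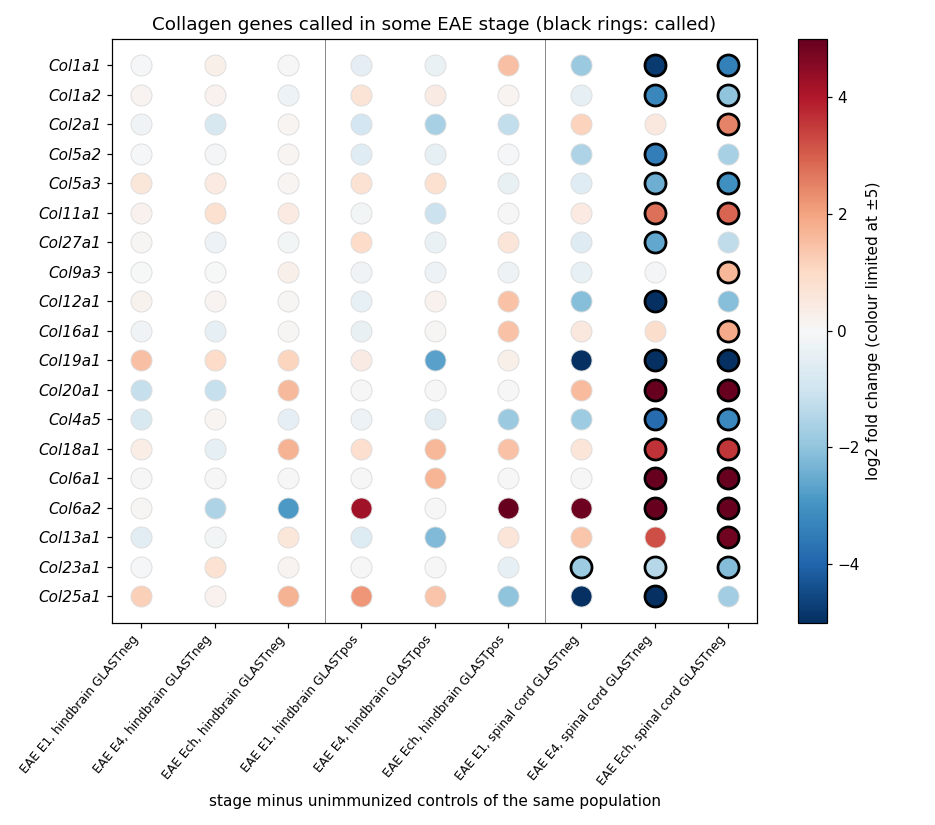
Log2 fold change from unimmunized controls of the same population (colour, limited at 5 either way) of the 19 collagen genes called at some stage (rows), at score 1, score 4 and in the chronic phase in hindbrain GLASTneg, hindbrain GLASTpos and spinal cord GLASTneg cells (columns). Black rings mark calls, and all rings lie in the spinal cord columns, 1 at score 1, 15 at score 4 and 15 in the chronic phase.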

How the data were processed

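RNA of sorted and cultured cells was measured in 84 libraries by 3′ mRNA sequencing (QuantSeq FWD, single reads of 50 bases). Per the labels and the methods of the study, the authors aligned reads to GRCm38 with HISAT 0.1.5, sorted them with SAMtools and counted them per gene with HTSeq 0.6.1p1 in union mode, and they deposited raw counts per gene in 2 tables, with 25773 and 48526 genes. Whether counting used strand is not given in the sources used here, so reads of genes that overlap on opposite strands (*Col4a1* and *Col4a2*, *Col9a3* and *Tcfl5*, *Col18a1* and *Slc19a1*) may be shared. Reads lie near the 3′ ends, and CPM were compared between libraries and not between genes. No pair of libraries held identical counts.

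The deposited counts were fitted with edgeR 4.0.16 (quasi-likelihood, TMM) in R 4.3.3, over 18 libraries for culture, 15 for the FVB/N groups and 66 for EAE, each with a factor for group and no covariate, for genes with at least 10 counts in total. A gene was called at a Benjamini-Hochberg adjusted p under 0.05 and a log2 fold change over 1 either way; adjusted p-values in the text are from these edgeR fits over all genes, two-sided. Values are mean ± SE of the log2 fold change unless SD is named. A group was at the floor where no library held over 3 counts, and folds against it are bounds per library at the mean floor. Tables were normalized separately and levels were not tested across them. Groups came from the labels; A and AG in the EAE titles were read as GLASTneg and GLASTpos. The labels do not say that libraries of a group are separate animals, so p-values measure the spread between libraries. Replicate numbers do not pair the samples: same-numbered libraries had mean correlations of −0.0058 (FVB/N) and −0.0069 (EAE). EAE titles carry another number (13, H13_10, S13) that libraries of a stage share across populations. Libraries of a stage may thus come from the same mice, which the sources used here do not state, and the tests treated them as independent. The 49 pairs of libraries that share it had a mean correlation of 0.043, 10 of them over 0.1, against −0.0063 for the other 314 pairs of a stage.

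Collagen genes were named where called with a group mean of at least 5 CPM, up to 6 a comparison by fold, with *Col1a1*, *Col1a2*, *Col3a1*, *Col4a1*, *Col4a2* and *Col6a1* throughout; others named were chosen after their values were seen. From the lists of related genes up to 4 called genes a comparison were named. The members and lists were chosen with earlier results of these data known. Alternatives were DESeq2 1.42.0, its size factors in edgeR, edgeR's filterByExpr, no filter beyond 1 count, no fold threshold, the replicate block, the sheet number, the table's group names and leaving out each library (keeping the dispersion trend of the full fit). After seeing the data, fits with the title number as a block factor in edgeR, which can be made for 5 of the 15 EAE comparisons, and by limma 3.58.1 (voom) with and without it as a random block were added. The fits were tested on simulated data. Gene positions are from GENCODE M21 on GRCm38.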

Additional observations from a re-analysis of the deposited data

Results flagged for a closer look

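In 124 groups of at least 4 libraries checked for a library far from the others, 2 were found. Chance gives about 1 in 20 groups, so 2 in 124 is no more than chance gives. *Col4a1* was at 35.1 CPM in score 4 hindbrain GLASTneg replicate 5, where the next library was at 18.5. *Col4a5* was at 12 CPM in control hindbrain GLASTneg replicate 3, where the next was at 7.82.

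The change from controls differed between spinal cord and hindbrain GLASTneg cells, by a test of the difference itself (edgeR, adjusted over all genes), for 6 collagen genes at score 4 and 7 in the chronic phase. Differences are log2 units, spinal cord minus hindbrain. At score 4 they were −5.07 for *Col1a1* (adjusted p = 7.0e-04), −3.44 for *Col1a2* (1.3e-07), −2.86 for *Col5a3* (0.0039), −2.19 for *Col23a1* (0.015), −6.70 for *Col8a1* (0.042) and 8.41 for *Col6a2* (0.020). In the chronic phase they were −3.46 for *Col1a1* (adjusted p = 0.023), −1.73 for *Col1a2* (0.012), −3.16 for *Col5a3* (0.0014), −2.29 for *Col23a1* (0.013), 7.64 for *Col4a6* (0.041), 10.41 for *Col6a2* (0.0040) and 1.34 for *Col9a3* (0.044). Leaving out 1 library kept the call of *Col9a3* in 4, of *Col4a6* in 8 and of *Col8a1* in 8 of 22 fits each. *Col8a1*, *Col4a6* and *Col6a2* were at or near 0 in most of these libraries, and their fitted sizes depend on the prior count. The changes of cell markers given with the spinal cord values move with these differences, and their part was not tested.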

How the results depend on the processing

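Counts of collagen genes called moved by more than 1.5 times in these cases. With filterByExpr, forebrain GLASTneg gave 1 and spinal cord at score 1 gave 2. DESeq2 gave 1 for hindbrain GLASTneg (FVB/N), 1 for hindbrain GLASTpos at score 4 and 1 in the chronic phase, and no filter beyond 1 count gave 1 for hindbrain GLASTpos at score 4. The sheet number in the design gave 6 for spinal cord at score 4, 1 for the chronic phase against score 4 and 3 for the score 4 difference of spinal cord and hindbrain; spinal cord libraries of number 57 or above gave 3, 0 and 2, each resting on 1 score 4 library whose spread is assumed to be that of the other groups. With the supplementary group names in place of the labels, 4 of the 5 FVB/N groups changed name, giving 2 for forebrain GLASTpos, 0 and 6 for hindbrain GLASTneg and GLASTpos and 3 for spinal cord, and the direction turned for *Col16a1* (−0.14) in hindbrain GLASTneg, for *Col1a2* (2.06) and *Col2a1* (5.18) in hindbrain GLASTpos, and for *Col16a1* (1.39), *Col2a1* (−1.45), *Col9a2* (−1.20) and *Col9a3* (−0.93) in spinal cord. Leaving out 1 library gave 1 to 2 for forebrain GLASTneg, 0 to 1 for forebrain GLASTpos, 1 to 4 for hindbrain GLASTneg, 1 to 3 for hindbrain GLASTpos, 0 to 2 for control spinal cord against hindbrain, 1 to 4 for spinal cord at score 1, 1 to 2 for the chronic phase against score 4 and 0 to 1 for hindbrain GLASTpos in the chronic phase. The cause was not tested.

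The replicate block, which shares only a number, gave 26 for culture, 14 for spinal cord at score 4 and 14 in the chronic phase, and moved no count by more than 1.5 times. A number in the EAE titles, whose meaning is not given in the sources used here, is shared by libraries of the same stage; 3 fits with it were chosen after seeing the data. As a block factor in edgeR it gave 0 for control spinal cord against hindbrain. Limma voom without a block gave 2 there, 3 for spinal cord at score 1 and 2 for hindbrain GLASTpos at score 4, and with the title number as a random block (estimated correlation 0.037) gave the same counts of 2, 3 and 2. Depth limits genes under the floor of 3 counts a library.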
